A study of Mus musculus with 33 samples.

Results

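Transforming growth factor beta (TGF-beta) genes were followed through 35 days of retinal progenitor culture under a cone and a rod protocol. The 9 genes were chosen by name from the 47729 genes of the count tables, and comprised 4 ligand genes (Tgfb1, Tgfb2, Tgfb3 and Inhba), 3 receptor genes (Tgfbr1, Tgfbr2 and Tgfbr3) and 2 target genes (Tgfbi and Skil). They were chosen with earlier results of these data known, so counts of them beside shares of all genes are descriptions only. All 9 passed the filter on low counts, which left 18150 genes for testing. In both cultures 8 of the 9 rose between day 0 and day 35 and the type I receptor gene Tgfbr1 fell. Over that interval 57.7% of all tested genes changed by the test in cone (31.1% higher) and 55.6% in rod (29.4% higher). Averaged over days 5 to 35, Tgfb1, Tgfb3, Tgfbr2 and Tgfbi were about 1.7 to 2.2 times higher in the cone culture, whereas Skil was 1.26 times lower there.

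TGF-beta ligands are secreted as inactive complexes held by latency proteins in the extracellular matrix. Once released, a ligand joins the type II receptor, Tgfbr2, to the type I receptor, Tgfbr1, which phosphorylates SMAD2 and SMAD3 so that they enter the nucleus with SMAD4. Betaglycan, the product of Tgfbr3, is a co-receptor that presents ligand, TGF-beta2 above all, and activin A, a dimer of the Inhba product, reaches the same SMADs through activin receptors. In the retina TGF-beta2 is the prominent isoform, and TGF-beta signalling is known to restrain division of progenitors and Muller glia.

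The cells were retinal progenitor cells from embryonic day 14 retina of C57BL/6J mice, a genotype that all groups share. At day 0 there were untreated cells, cone primed cells that had received COCO protein, and rod primed cells that had received taurine and retinoic acid. At days 5, 12, 21 and 35 there were cone cells cultured with COCO and rod cells cultured with taurine and retinoic acid. Because COCO blocks TGF-beta as well as BMP and Wnt ligands outside the cell, the cone arm held an antagonist of the pathway described here. The labels do not state how long each factor stayed in the medium, nor whether the 3 libraries of a group came from separate cultures or animals, and p-values then measure only the spread between these libraries, which may be technical.

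Each of the 11 groups held 3 libraries, with 7511837 to 19166442 counts in genes per library (median 12985662). Levels are given as CPM (a gene's counts relative to the library's total, the usual unit of count tables), scaled between libraries by TMM. A library count of 3, the limit that a count of 0 allows, equalled 0.174 to 0.407 CPM, which covers counting error only. The 9 retinal progenitor markers summed to 948 to 1274 CPM in untreated cells and were all detected, but the 9 photoreceptor markers, which summed to 898 to 1214 CPM in untreated cells, were down to 9.38 to 35.6 CPM in both cultures at day 35. The day 12 rod libraries were uneven, with a photoreceptor marker sum of 877 CPM in replicate 2 against 69.8 and 140 CPM in the others. In bulk libraries such as these, fewer cells of a type and less RNA per cell cannot be told apart.

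**Figure D1:**
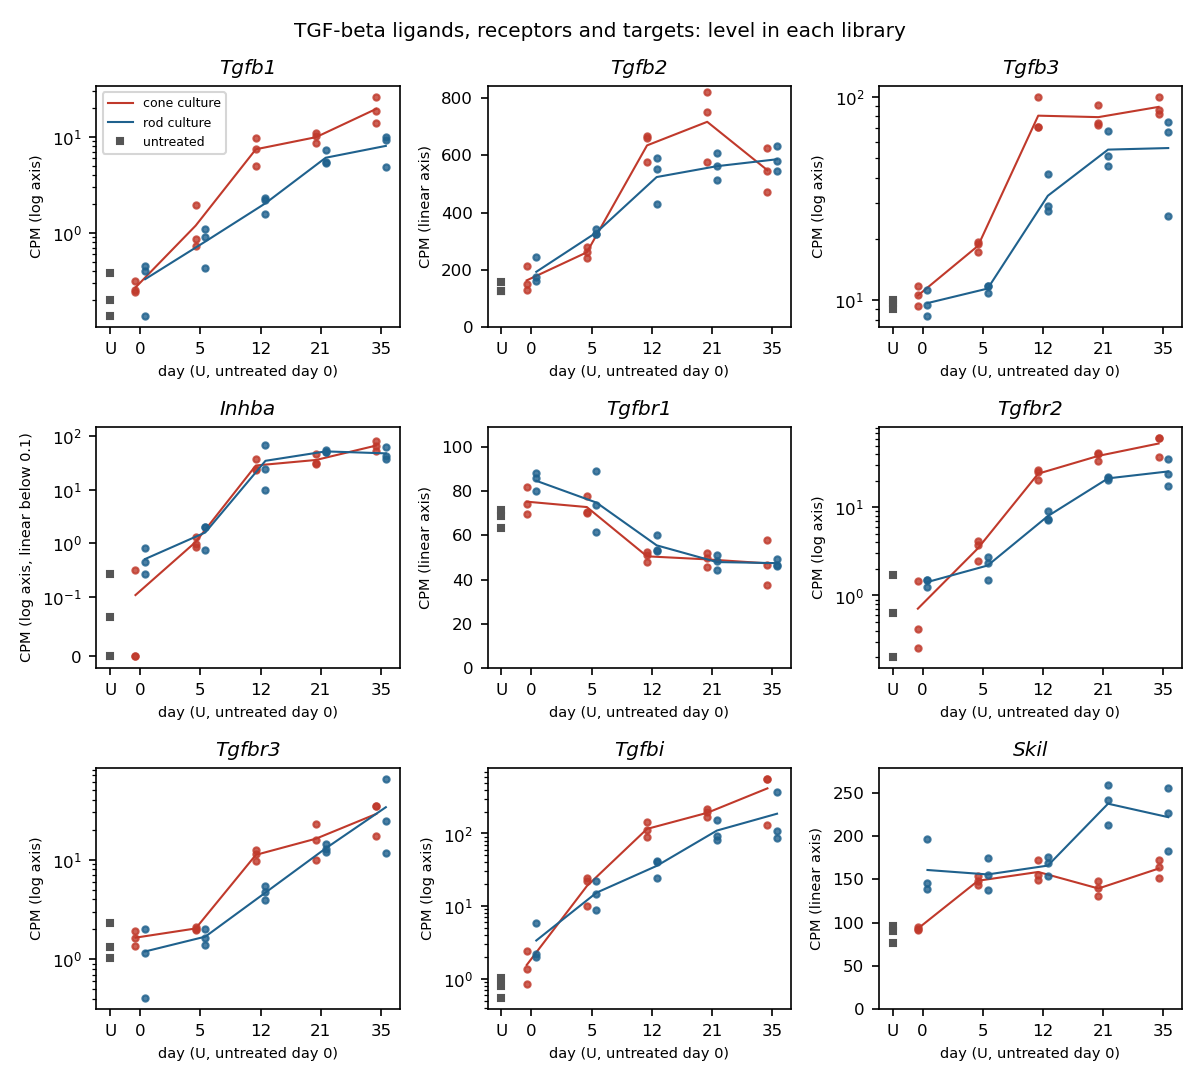
Level of each of the 9 genes in every library, in CPM (log or linear axis as marked), against day, with the sampled days evenly spaced. Points are libraries, lines join group means, red is cone, blue is rod (their primed cells stand at day 0) and grey squares are untreated cells. Tgfb1, Tgfb3, Inhba, Tgfbr2, Tgfbr3 and Tgfbi ended above all their day 0 libraries in both cultures, Tgfbr1 ended below them, and Skil stayed within 76.3 and 259 CPM.

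The bases just before the annotated starts of Tgfb2, Tgfbr2, Tgfbi and Tgfb1 are shown as examples from the genes that rose in culture. Inhba also rose, and its match count is given below without its bases. They come from RefSeq on build GRCm38.p6, are written 5′ to 3′ on the gene's strand, and hold no annotated exon of the gene. Capitals mark CAGAC or its reverse complement GTCTG, the SMAD box that SMAD3 and SMAD4 can bind, searched on both strands.

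Tgfb2, minus strand, chr1:186705990-186706239: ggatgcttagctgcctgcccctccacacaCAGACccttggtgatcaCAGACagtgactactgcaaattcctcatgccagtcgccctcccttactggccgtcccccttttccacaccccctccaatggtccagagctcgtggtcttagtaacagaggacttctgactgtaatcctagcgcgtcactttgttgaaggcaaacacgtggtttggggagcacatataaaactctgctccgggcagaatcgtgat
Tgfbr2, minus strand, chr9:116175364-116175613: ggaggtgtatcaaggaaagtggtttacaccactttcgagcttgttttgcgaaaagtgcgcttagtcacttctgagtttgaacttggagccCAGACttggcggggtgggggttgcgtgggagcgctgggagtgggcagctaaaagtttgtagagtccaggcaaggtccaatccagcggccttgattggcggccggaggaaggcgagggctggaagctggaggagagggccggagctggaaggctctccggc
Tgfbi, plus strand, chr13:56609336-56609522: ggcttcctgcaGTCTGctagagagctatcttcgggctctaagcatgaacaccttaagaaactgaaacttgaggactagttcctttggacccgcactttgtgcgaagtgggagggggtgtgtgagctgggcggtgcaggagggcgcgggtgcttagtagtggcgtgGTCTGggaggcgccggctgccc
Tgfb1, plus strand, chr7:25686752-25687001: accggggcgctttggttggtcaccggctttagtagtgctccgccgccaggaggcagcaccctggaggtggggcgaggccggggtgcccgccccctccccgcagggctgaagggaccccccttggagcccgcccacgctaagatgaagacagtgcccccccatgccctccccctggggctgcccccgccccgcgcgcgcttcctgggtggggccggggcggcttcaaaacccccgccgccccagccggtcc

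The Tgfb2 and Tgfbi windows held 2 matches each, the Tgfbr2 window 1 and the Tgfb1 window 0. Of 32851 windows of 250 bases in the RefSeq table, 42.2% held at least 1 match and 11.7% at least 2, so a match at this length is common. The Tgfb1 window was 75.2% G and C, against 53.6% for Tgfb2, 58.4% for Tgfbr2 and 62.4% for Tgfbi over 250 bases. A match is a description of the letters and not a sign of binding. Of the 9 genes, 6 were matched in that table, the others being Inhba and Tgfbr1. The Inhba window held 0 matches. Tgfbr1, which fell in culture, held 0 in the window chr4:47352972-47353221 and 1 in the window chr4:47385966-47386215.

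Tgfb2 was the most abundant TGF-beta ligand gene per length in every group. The gene (ENSMUSG00000039239) lies on GRCm38 chromosome 1, from 186622792 to 186705989 on the minus strand. Untreated libraries held 158, 126 and 125 CPM, cone primed libraries 149, 212 and 129 CPM, and rod primed libraries 174, 160 and 246 CPM. The cone primed libraries overlapped both other groups, while every rod primed library was above every untreated one. The cone cultures rose to 279, 242 and 263 CPM at day 5, to 662, 576 and 667 CPM at day 12 and to 753, 823 and 577 CPM at day 21, and stood at 474, 625 and 546 CPM at day 35. The rod cultures held 324, 327 and 342 CPM at day 5, 593, 430 and 551 CPM at day 12, 564, 515 and 609 CPM at day 21 and 634, 581 and 545 CPM at day 35. At day 5 every cone library was below every rod library, and from day 12 the cultures overlapped. From day 0 to day 35 Tgfb2 rose by 1.75 ± 0.17 (SE) on the log2 scale in the cone culture (edgeR quasi-likelihood test, Benjamini-Hochberg adjusted p = 2.37e-09) and by 1.60 ± 0.17 in the rod culture (adjusted p = 1.53e-08). No cone against rod difference of Tgfb2 passed the test, and the difference averaged over days 5 to 35 was 0.05 ± 0.08 on the log2 scale (adjusted p = 0.731).

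Tgfb3 (ENSMUSG00000021253, chromosome 12, 86056744 to 86079041, minus strand), which encodes the third TGF-beta isoform, started at 8.35 to 11.7 CPM in all 9 day 0 libraries. At day 5 the cone libraries held 19.0, 17.2 and 19.4 CPM and the rod libraries 11.7, 10.8 and 11.7 CPM. At day 12 the cone libraries reached 70.9, 71.2 and 99.5 CPM and the rod libraries 41.6, 27.3 and 28.8 CPM. The cultures did not overlap on these days or on days 21 and 35, and the day 12 difference of 1.31 ± 0.24 on the log2 scale passed the test (edgeR, adjusted p = 0.000518). The cone libraries then stayed between 72.8 and 99.1 CPM at days 21 and 35. The rod libraries held 51.0, 45.6 and 68.0 CPM at day 21 and 26.0, 66.7 and 74.8 CPM at day 35, when replicate 1 was the lowest by far. At day 35 the difference of 0.67 ± 0.23 missed the threshold (adjusted p = 0.0593), but it passed without rod replicate 2 (adjusted p = 0.0453) or 3 (adjusted p = 0.0184).

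Tgfb1 was nearly silent in the progenitors and stayed the least abundant of the TGF-beta isoforms. The gene (ENSMUSG00000002603) lies on chromosome 7 from 25687002 to 25705077, plus strand. The 9 day 0 libraries held 1 to 5 counts each, at 0.136 to 0.449 CPM. Cone libraries held 0.869, 0.730 and 1.98 CPM at day 5, 7.58, 5.05 and 9.74 CPM at day 12, 10.2, 8.73 and 11.0 CPM at day 21 and 26.2, 13.9 and 18.9 CPM at day 35. Rod libraries held 0.899, 0.429 and 1.11 CPM at day 5, 2.21, 2.32 and 1.59 CPM at day 12, 5.41, 5.48 and 7.37 CPM at day 21 and 4.93, 10.1 and 9.23 CPM at day 35. From day 12 every cone library was above every rod library of its day. The cone minus rod difference of Tgfb1 was 1.86 ± 0.35 on the log2 scale at day 12 (edgeR, adjusted p = 0.000650), 0.71 ± 0.32 at day 21 (adjusted p = 0.183) and 1.28 ± 0.32 at day 35 (adjusted p = 0.00737). The day 35 call was lost without cone replicate 1 (adjusted p = 0.0628) or without rod replicate 1 (adjusted p = 0.0669).

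Inhba, which encodes the activin A subunit, rose from counts near 0 in both cultures. It lies on chromosome 13 from 16011851 to 16027211, plus strand (ENSMUSG00000041324). Untreated libraries held 0, 1 and 4 counts, cone primed libraries 0, 4 and 0, and rod primed libraries 2, 8 and 5 (0.271, 0.806 and 0.449 CPM). At day 5 the cone libraries held 1.34, 0.973 and 0.872 CPM and the rod libraries 2.02, 2.00 and 0.764 CPM. Between days 5 and 12 came the steepest step, to 24.7, 23.8 and 37.3 CPM in cone (log2 change of 4.75 ± 0.53) and to 70.0, 10.1 and 24.9 CPM in rod (4.48 ± 0.52, or 3.48 without replicate 1). At day 21 the cone libraries held 46.1, 30.7 and 32.1 CPM, all below the rod libraries at 50.2, 52.2 and 55.0 CPM, though the difference missed the threshold (-0.54 ± 0.40, edgeR adjusted p = 0.470). At day 35 the cone libraries held 82.8, 52.8 and 66.8 CPM and the rod libraries 42.4, 37.8 and 64.3 CPM, which overlapped. The rise from day 0 was 8.89 ± 0.74 on the log2 scale in cone (edgeR, adjusted p = 9.40e-11) and 6.49 ± 0.62 in rod (adjusted p = 1.98e-09). The cone value rests on the 4 counts of primed replicate 2 and was 12.7 without that library.

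Counted per kilobase of exon, which allows a rough comparison between genes, Tgfb2 made up 88.2% to 90.0% of the 3 TGF-beta isoforms in untreated cells. In the cone culture this share was 88.1% to 89.3% at day 5, 78.6% to 83.6% at day 12 and 70.4% to 79.4% at day 35. In the rod culture it was 93.9% to 94.5% at day 5, 88.9% to 91.5% at day 12 and 79.7% to 92.7% at day 35. The cone range lay below the rod range on these days, by the narrowest margin at day 35, while at day 21 the ranges of 80.8% to 85.8% and 83.0% to 85.9% overlapped. Tgfb1 never exceeded 4.47% of the isoforms in any library. The 3 isoforms together rose from 24.3 to 30.4 CPM per kilobase in untreated cells to 116 to 136 CPM per kilobase in cone and 118 to 122 CPM per kilobase in rod at day 35. These shares of transcript are descriptions, without a test.

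Tgfbr1, the type I receptor, was the one gene of the 9 that fell. It lies on chromosome 4 from 47353222 to 47414931, plus strand (ENSMUSG00000007613). Untreated libraries held 68.6, 63.5 and 71.2 CPM, cone primed libraries 69.7, 81.8 and 74.1 CPM and rod primed libraries 85.7, 80.1 and 88.1 CPM. At day 12 the level was 51.1, 48.1 and 52.4 CPM in cone and 60.3, 52.9 and 53.2 CPM in rod, and at day 35 it was 46.8, 37.3 and 57.9 CPM in cone and 46.7, 49.4 and 46.2 CPM in rod. All day 35 libraries were below all day 0 libraries. From day 0 to day 35 Tgfbr1 fell by 0.67 on the log2 scale in cone (SE 0.12, edgeR adjusted p = 3.74e-05) and fell by 0.84 in rod (SE 0.12, adjusted p = 1.97e-06). Cone and rod did not differ by the test at any day, and the mean difference was -0.04 ± 0.06 (adjusted p = 0.721).

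Tgfbr2, the ligand-binding type II receptor, lies on chromosome 9 from 116087698 to 116175363, minus strand (ENSMUSG00000032440). Its 9 day 0 libraries ranged from 0.200 to 1.70 CPM. The cone culture held 3.74, 2.43 and 4.13 CPM at day 5, 26.7, 20.4 and 25.0 CPM at day 12, 39.8, 33.5 and 41.3 CPM at day 21 and 60.9, 37.1 and 60.1 CPM at day 35. The rod culture held 2.70, 1.50 and 2.36 CPM at day 5, 7.21, 7.44 and 9.16 CPM at day 12, 21.3, 20.2 and 22.2 CPM at day 21 and 17.4, 35.0 and 23.9 CPM at day 35. From day 12 the cone libraries were all above the rod libraries of the same day. The difference was 1.60 ± 0.32 on the log2 scale at day 12 (edgeR, adjusted p = 0.00163), 0.85 ± 0.31 at day 21 (adjusted p = 0.0887) and 1.05 ± 0.31 at day 35 (adjusted p = 0.0234). The day 35 call did not survive leaving out cone replicate 1 or 3 or rod replicate 1 or 3 (adjusted p of 0.0851 to 0.148). The rise from day 0 to day 35 was 6.06 ± 0.44 in cone, or 7.23 without cone primed replicate 2, and 4.16 ± 0.40 in rod.

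Tgfbr3, the betaglycan gene, lies on chromosome 5 from 107106570 to 107289629, minus strand (ENSMUSG00000029287). It held 0.407 to 2.31 CPM at day 0. At day 12 the cone libraries held 11.3, 12.5 and 9.67 CPM and the rod libraries 5.43, 3.89 and 4.69 CPM, which did not overlap, but the difference of 1.26 ± 0.42 on the log2 scale missed the threshold (edgeR, adjusted p = 0.0565). At day 35 the cone libraries held 34.4, 17.3 and 34.5 CPM and the rod libraries 11.7, 64.5 and 24.5 CPM, with replicate 2 far above the other rod libraries. The rise from day 0 to day 35 was 4.11 ± 0.49 in cone and 4.74 ± 0.51 in rod, the latter 3.85 without that replicate. Over days 5 to 35 the mean difference was 0.41 ± 0.21 (adjusted p = 0.160), and it was called without that replicate (0.63, adjusted p = 0.00747).

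Per kilobase of exon, Tgfbr2 transcript stood at 0.00252 to 0.0190 of the Tgfbr1 level in untreated cells. These untreated values rest on only 5, 3 and 25 counts of Tgfbr2 and are imprecise. This ratio was 0.0275 to 0.0427 in cone and 0.0135 to 0.0306 in rod at day 5, and 0.338 to 0.417 in cone and 0.0955 to 0.137 in rod at day 12. At day 35 it was 0.793 to 1.04 in cone and 0.298 to 0.566 in rod. The type II and type I receptor transcripts were therefore near parity in the cone libraries at day 35, and the cone and rod ratios did not overlap at days 12, 21 and 35. Tgfbr3 stood at 0.0149 to 0.0324 of Tgfbr1 in untreated cells, 0.461 to 0.734 in cone at day 35 and 0.251 to 1.30 in rod.

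**Figure D2:**
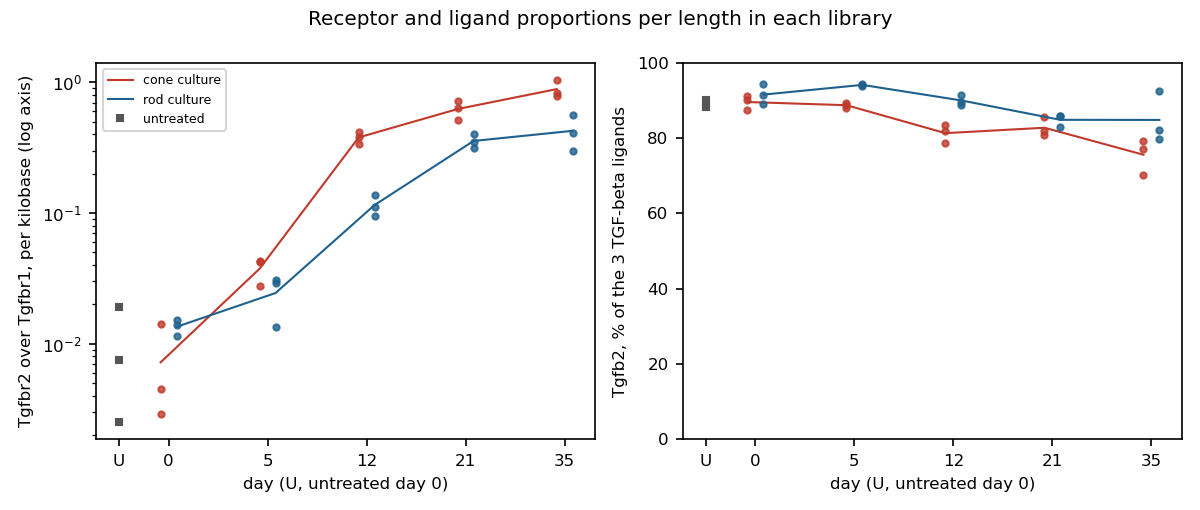
Left, Tgfbr2 level divided by Tgfbr1 level, both in CPM per kilobase, on a log axis. Right, Tgfb2 as a percentage of the summed CPM per kilobase of Tgfb1, Tgfb2 and Tgfb3. Points are libraries, lines join group means, with cone in red, rod in blue and untreated cells (U) in grey. The receptor ratio rose in both cultures and was higher in every cone library than in every rod library of the same day from day 12 on, while Tgfb2 remained above 70% of the isoforms in all 33 libraries.

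Tgfbi encodes a secreted matrix protein named for its induction by TGF-beta, and at day 35 in cone cells it stood with Tgfb2 at the top of the 9 genes per length. Tgfbi was at 111 ± 66.2 CPM per kilobase (SD, n = 3) and Tgfb2 at 94.7 ± 13.1, which do not differ beyond their spread. It lies on chromosome 13 from 56609603 to 56639339, plus strand (ENSMUSG00000035493). Untreated libraries held 1.02, 0.800 and 0.543 CPM, cone primed libraries 1.38, 2.43 and 0.838 CPM and rod primed libraries 2.17, 2.02 and 5.93 CPM. Cone libraries held 24.5, 10.2 and 22.0 CPM at day 5, 145, 112 and 89.1 CPM at day 12, 196, 167 and 214 CPM at day 21 and 561, 129 and 562 CPM at day 35. Rod libraries held 22.4, 8.94 and 14.7 CPM at day 5, 41.1, 24.7 and 41.6 CPM at day 12, 92.3, 155 and 80.9 CPM at day 21 and 85.7, 368 and 107 CPM at day 35. At days 12 and 21 all cone libraries were above all rod libraries, and at day 35 cone replicate 2 and rod replicate 2 crossed over. The difference was 1.69 ± 0.50 on the log2 scale at day 12 (edgeR, adjusted p = 0.0285), 0.81 ± 0.48 at day 21 (adjusted p = 0.335) and 1.16 ± 0.48 at day 35 (adjusted p = 0.125). The day 12 call was lost without cone replicate 1 (adjusted p = 0.0984), rod replicate 2 (0.118) or rod replicate 3 (0.0673). At day 35 the difference was called without cone replicate 2 (1.58, adjusted p = 0.0275) and without rod replicate 2 (2.12, adjusted p = 0.00557).

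Skil encodes SnoN, a repressor that binds SMADs and is itself induced by the pathway as feedback. The gene (ENSMUSG00000027660) lies on chromosome 3 from 31095058 to 31122577, plus strand. Untreated libraries held 96.1, 90.8 and 76.3 CPM and cone primed libraries 92.8, 92.0 and 94.5 CPM, whereas rod primed libraries held 197, 139 and 146 CPM, all above the others. Skil was the sole member that passed the test in rod primed against untreated cells, at 0.88 ± 0.13 on the log2 scale (edgeR, adjusted p = 3.09e-05), and in cone primed against rod primed cells, at -0.79 ± 0.13 (adjusted p = 0.000146). These comparisons share the rod primed libraries.

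The gap of Skil closed and opened again during culture. At day 5 the cone libraries held 144, 148 and 154 CPM and the rod libraries 138, 175 and 155 CPM, and at day 12 they held 155, 149 and 172 CPM against 153, 169 and 176 CPM. Both pairs of groups overlapped, and the differences were -0.07 ± 0.12 at day 5 and -0.07 ± 0.12 at day 12 on the log2 scale. At day 21 the cone libraries held 148, 131 and 140 CPM and the rod libraries 212, 242 and 259 CPM, and at day 35 they held 164, 152 and 172 CPM against 183, 256 and 227 CPM. Every rod library was above every cone library on these days, with differences of -0.77 ± 0.12 (edgeR, adjusted p = 0.000167) and -0.45 ± 0.12 (adjusted p = 0.0158). The day 35 call was lost without cone replicate 2 (adjusted p = 0.0624) or rod replicate 2 (adjusted p = 0.114). By the F test on 4 degrees of freedom, Skil was the only one of the 9 called for a cone minus rod difference that changed with day (edgeR, adjusted p = 0.00680). That is 1 of 9 beside 9.22% of all genes called. At unadjusted p under 0.05 there were 5 of the 9, but the share of all genes at that threshold was not counted. The next member was Tgfbr2 (adjusted p = 0.0895, or 0.00201 by DESeq2), and DESeq2 called 2 of the 9.

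The time course was compared step by step within each culture. From day 0 to day 35 the test called 9 of the 9 genes in cone, 8 of them higher, where 57.7% of all genes were called and 31.1% called higher. In rod it also called 9, 8 of them higher, where the shares were 55.6% and 29.4%. In cone the first step, to day 5, called 6 higher (Tgfb1, Tgfb2, Tgfb3, Tgfbr2, Tgfbi and Skil, with 22.3% of all genes called), and the step to day 12 called 8, all but Skil, with Tgfbr1 lower (43.2% of all genes). The later steps called 0 of the 9, where edgeR called 3.36% and 0.915% of all genes. At unadjusted p under 0.05, 1 and 5 of the 9 changed in those steps, with no share of all genes counted at that threshold. DESeq2 called 0 in both.

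In rod the test called members in 3 steps. The step to day 5 called 2 of the 9, Tgfb2 and Tgfbi (17.5% of all genes called), and the step to day 12 called 7, that is all but Tgfbi and Skil, with Tgfbr1 lower (18.3% of all genes). The step from day 12 to day 21 called 6 higher, namely Tgfb1, Tgfb3, Tgfbr2, Tgfbr3, Tgfbi and Skil (11.2% of all genes). It called 2 to 7 when 1 library was left out, with 2 without day 21 replicate 3 and 3 without day 12 replicate 2 or 3. With the compared libraries alone all 6 calls were lost (adjusted p of 0.0553 to 0.166). Inhba was called in this step without day 12 replicate 1 (1.58, adjusted p = 0.00312). The last step called 0 (1.54% of all genes), 1 at unadjusted p under 0.05 and 1 by DESeq2, the gene being Tgfbr3. Whether the 2 cultures differ in the timing of each gene is what the F test above addresses, and apart from Skil no member passed it.

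Between cultures, the number of the 9 genes called was 1 in primed cells of day 0, where 7.27% of all genes were called. It was 0 on day 5 (9.28% of all genes), 4 on day 12 (10.1%), then 1 on day 21 (9.0%) and 3 on the last day (12.3%). At day 5, 1 gene, Tgfb3, had an unadjusted p under 0.05 in edgeR and was called by DESeq2. The 4 genes of day 12, Tgfb1, Tgfb3, Tgfbr2 and Tgfbi, were all higher in cone, against 5.98% of all genes called higher. At day 35 Tgfb1 and Tgfbr2 were higher and Skil lower in cone, and 1 to 4 genes were called when 1 library was left out, with 1 without replicate 1 of either culture. The median difference of the 9 genes was 1.26 on the log2 scale at day 12, 0.35 at day 21 and 0.48 at day 35, beside medians of -0.01, 0.03 and 0.02 over all genes.

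Over the mean of the 4 daily log2 differences from day 5 to day 35, 5 of the 9 genes were called (27.8% of all genes), 4 of them higher in cone (15.6%) and 1 lower (12.2%). Tgfb1 was higher by 1.10 ± 0.18 (edgeR, adjusted p = 2.46e-05), Tgfbr2 by 1.04 ± 0.17 (adjusted p = 2.47e-05), Tgfbi by 0.99 ± 0.25 (adjusted p = 0.00320) and Tgfb3 by 0.80 ± 0.12 (adjusted p = 9.12e-06). Skil was lower, at -0.34 ± 0.06 (adjusted p = 0.000140). Without day 12, an alternative added after the data were seen, 4 of the calls held, while Tgfbi moved to 0.76 ± 0.28 (adjusted p = 0.0503).

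**Figure D3:**
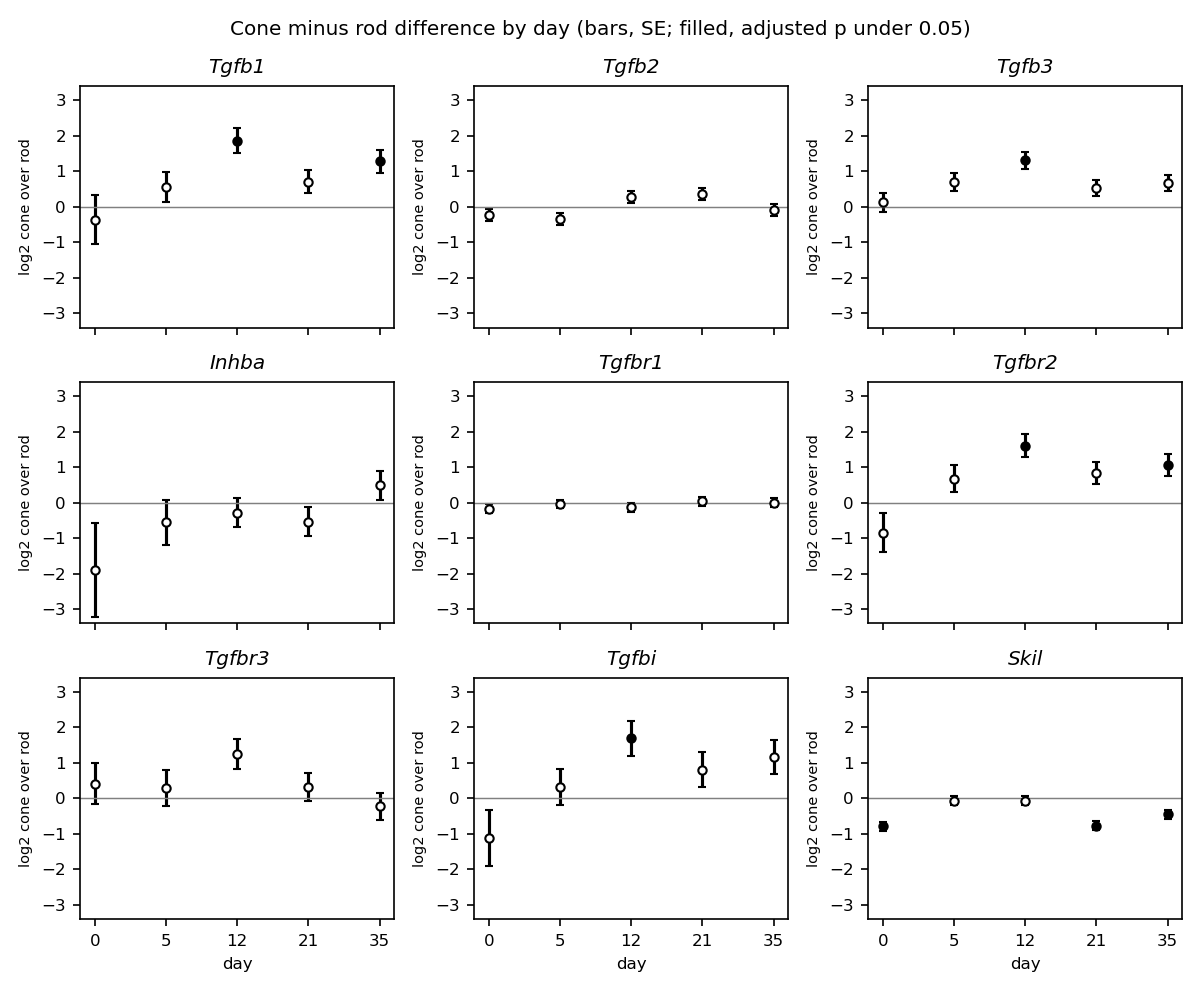
Cone minus rod difference of each of the 9 genes on the log2 scale at days 0, 5, 12, 21 and 35, with the standard error of the model as bars. Filled points passed an adjusted p of 0.05 in edgeR. Tgfb1, Tgfb3, Tgfbr2 and Tgfbi reach their highest value at day 12, between 1.31 and 1.86, while Skil is below 0 at days 0, 21 and 35 and close to 0 at days 5 and 12.

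Priming with COCO changed none of the 9 genes by the test. In cone primed against untreated cells 0 of the 9 passed in edgeR, as did 0.0% of all genes, with 0 of the 9 at unadjusted p under 0.05 and 0 by DESeq2. The median difference of the 9 genes was 0.15 on the log2 scale. Rod priming called 1 gene, Skil (10.3% of all genes called), and 1 to 2 when a library was left out. At unadjusted p under 0.05 there were 4, the others being Tgfb2 (0.51 ± 0.17, adjusted p = 0.0567), Tgfbr1 (0.32 ± 0.12, adjusted p = 0.0931) and Tgfbi (2.20 ± 0.87, adjusted p = 0.112). DESeq2 called 3, adding Tgfb2 (adjusted p = 0.0258) and Tgfbi (adjusted p = 0.00953). The shares of all genes at unadjusted p and by DESeq2 were not counted.

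The pathway around the 9 genes was read from 65 other genes in 6 lists, of which 57 could be tested. These lists and the marker lists were also chosen with earlier results known. Their counts beside shares of all genes are therefore descriptions and not independent evidence. Rod priming called 11 of these 57, all higher (6 without untreated replicate 2), where 10.3% of all genes were called in either direction. Of 12 latency and activation genes 5 were higher, including Ltbp3 (1.80 ± 0.20 on the log2 scale, edgeR adjusted p = 7.23e-07) and Ltbp1 (1.56 ± 0.33, adjusted p = 0.00252), which encode proteins that tether latent TGF-beta to the matrix. The median of this list was 1.09, or 0.84 with a gene at 0 in untreated cells set to its lower bound, beside 0 over all genes. Cone priming called 0 of the 57 in edgeR.

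Among 12 inhibitors, rod priming raised Pmepa1, a membrane protein that holds SMADs away from the receptor and is induced by TGF-beta, and Tgif2, a SMAD corepressor (0.63 ± 0.18, adjusted p = 0.0241, lost without untreated replicate 2 or rod primed replicate 3). Pmepa1 held 45.2, 33.6 and 27.4 CPM in untreated libraries, 35.9, 34.2 and 33.5 CPM in cone primed libraries and 313, 315 and 274 CPM in rod primed libraries. The rod primed libraries were all far above the rest, by 3.10 ± 0.17 on the log2 scale (edgeR, adjusted p = 8.81e-13). Pmepa1 stayed lower in cone at day 12, at 100, 106 and 129 CPM in cone against 202, 153 and 176 CPM in rod, and its difference over days 5 to 35 was -0.97 ± 0.08 (adjusted p = 3.50e-10). Of the 4 SMAD transducers, Smad3 rose with rod priming (28.5, 22.8 and 27.6 CPM to 48.8, 59.4 and 72.6 CPM, or 1.20 ± 0.24, adjusted p = 0.00172) and was lower in cone over days 5 to 35 (-0.66 ± 0.12, adjusted p = 9.95e-05).

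Among 19 other target genes rod priming called 3, all higher. Postn, a matrix gene, held 1.15, 0.934 and 0.679 CPM in untreated and 16.6, 10.9 and 92.3 CPM in rod primed libraries (5.49 ± 1.03, edgeR adjusted p = 0.000787). Without rod primed replicate 3 the difference was 3.93 (adjusted p = 0.0192). Nedd9, a scaffold protein of focal adhesions, rose by 1.29 ± 0.22 (adjusted p = 0.000289). The median of the list was 0.44. With these changes, 5 of 8 Muller glia markers, 3 of 9 progenitor markers, 2 of 6 astrocyte markers and 2 of 10 mesenchyme markers were called higher in rod primed cells, where 10.3% of all genes were called in either direction. Called lower were 1 progenitor marker and 1 of 7 markers each of ganglion cells and of amacrine and horizontal cells, and 1 of the 3 pigment epithelium markers that could be tested. The summed Muller glia markers went from 330 to 393 CPM in untreated to 637 to 752 CPM in rod primed libraries, and the progenitor markers from 948 to 1274 CPM to 1759 to 2160 CPM. The amacrine and horizontal cell markers went from 514 to 588 CPM to 260 to 323 CPM, and the ganglion cell markers from 299 to 520 CPM to 93.4 to 279 CPM. The part of these cells in the result was not tested.

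**Figure D4:**
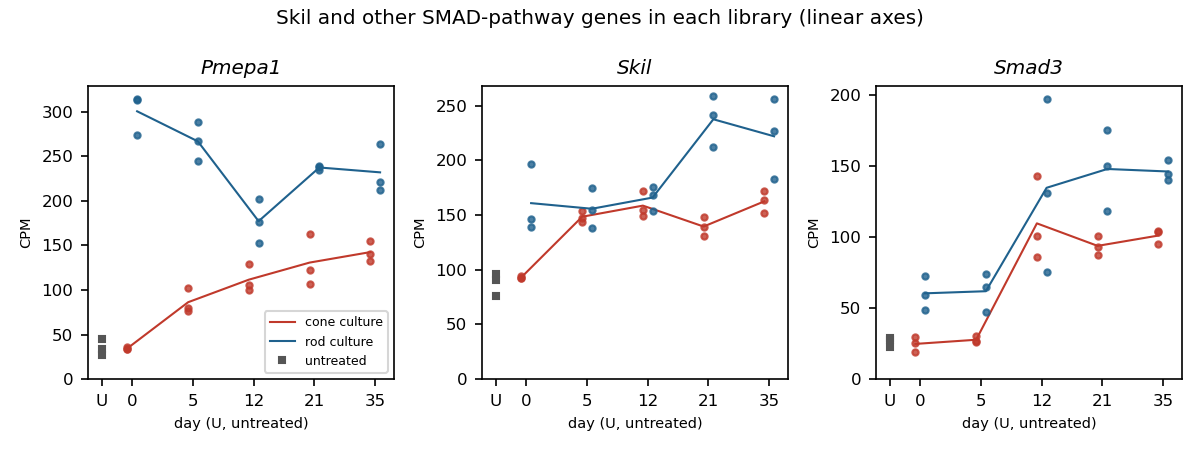
Pmepa1, Skil and Smad3 levels in every library, in CPM on linear axes, against day (evenly spaced). Points are libraries and lines join group means, with cone in red, rod in blue (their primed cells at day 0) and untreated cells (U) in grey. Pmepa1 is at 274 to 315 CPM in rod primed libraries and at 27.4 to 45.2 CPM in the other day 0 libraries.

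Over days 5 to 35 the test called 30 of the 57 pathway genes between cultures, 19 higher and 11 lower in cone, beside 27.8% of all genes called, 15.6% higher and 12.2% lower. The largest group was the other target genes, where 12 of 19 were higher and 3 lower, with a list median of 0.82 on the log2 scale beside 0.01 over all genes. Among those higher in cone were the fibrillar collagen genes Col1a1 (3.57 ± 0.31, edgeR adjusted p = 1.67e-09) and Col1a2 (2.94 ± 0.42, adjusted p = 4.92e-06). Lower in cone were Postn (-1.29 ± 0.36, adjusted p = 0.00877), Nedd9 (-0.43 ± 0.11, adjusted p = 0.00328) and Junb (-0.30 ± 0.10, adjusted p = 0.0294), an AP-1 transcription factor gene. Without day 12 the calls of Postn (-0.73, adjusted p = 0.220) and Junb (adjusted p = 0.0502) were lost, and that of Junb also without any 1 of 6 libraries of 24. Targets of the pathway thus did not all move one way between the cultures.

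Of the 12 latency and activation genes, 4 were higher and 3 lower in cone over days 5 to 35. Higher were Thbs1 (1.99 ± 0.20, edgeR adjusted p = 1.36e-08), which encodes thrombospondin 1, an activator of latent TGF-beta, Fbn1 (1.43 ± 0.24, adjusted p = 4.21e-05) and Ltbp2 (1.34 ± 0.21, adjusted p = 3.35e-05), both matrix microfibril proteins. Thbs1 stood at 1067, 1137 and 1560 CPM in cone and 326, 90.4 and 160 CPM in rod at day 12. Lower were Lrrc32 (-1.09 ± 0.29, adjusted p = 0.00536), which anchors latent TGF-beta at the cell surface, Ltbp1 (-0.68 ± 0.15, adjusted p = 0.000847) and Ltbp3 (-0.52 ± 0.09, adjusted p = 8.33e-05). Smaller lists split likewise, with Inhbb, the activin B subunit, higher in cone (1.71 ± 0.21, adjusted p = 6.34e-07) and Gdf11, a ligand of the same SMADs, lower (-0.46 ± 0.07, adjusted p = 9.24e-06), and with the co-receptor gene Eng higher (1.06 ± 0.37, adjusted p = 0.0314) and the receptor gene Acvr1b lower (-0.28 ± 0.10, adjusted p = 0.0329). The calls of Eng and Acvr1b were lost without day 12 (adjusted p = 0.268 and 0.292) and without any 1 of 8 and 9 libraries of 24.

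Besides Pmepa1, an inhibitor was called in each direction. Fst, the activin-binding follistatin, was higher in cone over days 5 to 35 (0.75 ± 0.25, edgeR adjusted p = 0.0258), and Dcn, the TGF-beta-binding proteoglycan decorin, was called lower (adjusted p = 0.0451). Dcn had 0 counts in all 3 cone libraries of day 5, so the size of its fitted difference is not given. The call of Dcn was lost without any 1 of 14 libraries of 24, and that of Fst without replicate 1 of cone or 2 of rod at day 5, and both were lost without day 12 (adjusted p = 0.117 and 0.0818). At day 35 Dcn held 82.4, 13.9 and 124 CPM in cone and 23.2, 133 and 58.0 CPM in rod, which overlapped.

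From day 0 to day 35 most pathway genes rose, as most members did, but the lists differed. Of the 4 other ligand genes tested, 0 were called higher and 3 lower in each culture. Of the 6 other receptor genes, 2 were higher and 3 lower in cone, and 1 was higher and 2 lower in rod. The 4 SMAD transducers had 1 higher and 2 lower in each culture. Over all lists, in cone 42 of the 57 genes were higher and 8 lower, and in rod 39 were higher and 9 lower. Of all genes 57.7% were called in cone, 31.1% higher, and 55.6% in rod, 29.4% higher. All 19 other targets rose in cone, with a median of 6.85 on the log2 scale, and 18 rose in rod, with a median of 4.46 (4.39 with a gene at 0 set to its bound). Of the 12 latency genes 11 rose in each culture, with medians of 3.82 and 3.00. Receptors for activins went the other way, as Acvr2b fell by 3.32 ± 0.32 on the log2 scale in cone (edgeR, adjusted p = 1.08e-09) and fell by 3.12 ± 0.32 in rod (adjusted p = 5.36e-09). Of the transducers, Smad3 rose by 2.02 ± 0.25 in cone (adjusted p = 8.68e-08) and 1.27 ± 0.24 in rod (adjusted p = 5.71e-05), while Smad2 fell by 0.69 ± 0.09 (adjusted p = 5.74e-07) and fell by 0.70 ± 0.09 (adjusted p = 5.16e-07). Mstn, the myostatin gene, had 0 counts in all 6 libraries at day 35 and its level was at least 19.4-fold lower than in primed cells for cone, and for rod at least 5.04-fold lower, with 3 counts per library as the floor. Inhbb, which shares its receptors with Inhba, fell by 1.64 ± 0.39 in cone (adjusted p = 0.000802) and fell by 4.21 ± 0.46 in rod (adjusted p = 1.75e-08), so the activin A and activin B subunit genes moved in opposite directions.

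Markers of other cell types moved with these changes. The 10 mesenchyme and fibroblast markers summed to 9.74 to 23.3 CPM in untreated cells, with Twist2 and Foxc2 at 0. All 10 rose in each culture by day 35, where 31.1% of all genes were called higher in cone and 29.4% in rod. Their sum was 406 to 532 CPM in cone and 180 to 239 CPM in rod at day 12, and 603 to 1368 CPM in cone and 345 to 463 CPM in rod at day 35. On these days 4 and 6 of the 10 were called higher in cone, and 1 was called lower at day 12. Of all genes 10.1% and 12.3% were called in either direction. The 6 astrocyte markers summed to 430 to 666 CPM in cone and 202 to 396 CPM in rod at day 12. The 8 Muller glia markers summed to 330 to 393 CPM in untreated cells. At day 35 they summed to 1845 to 2493 CPM in cone and 1414 to 3328 CPM in rod. From day 0 to day 35, 7 of these 8 were called higher in cone, and 6 higher and 1 lower in rod. Between the cultures at day 35, 0 of the 8 were called. Within the day 35 groups the library lowest in mesenchyme markers in cone (replicate 2, 603 CPM) was also lowest in Tgfbi, and the library highest in rod (replicate 2, 463 CPM) was highest in Tgfbi and Tgfbr3. The part of these cells in the differences of Tgfb1, Tgfb3, Tgfbr2 and Tgfbi was not tested.

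**Figure D5:**
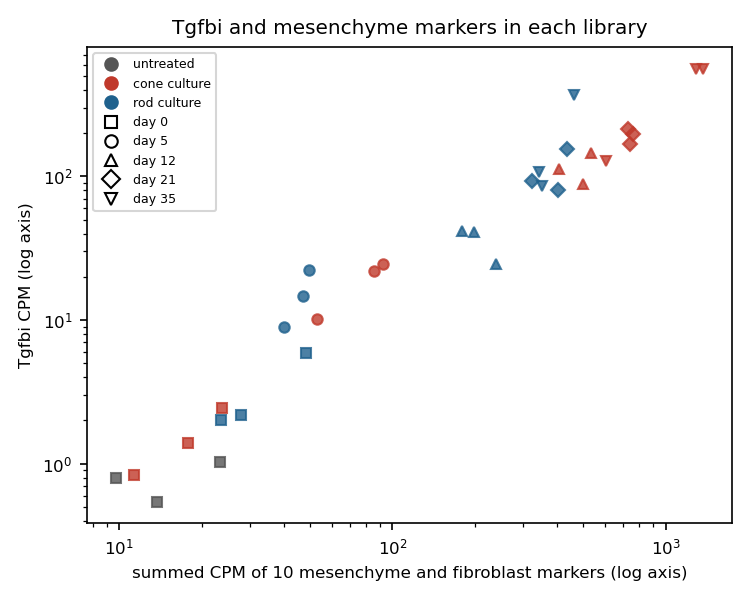
Tgfbi level in CPM against the summed CPM of 10 mesenchyme and fibroblast markers, both on log axes, with 1 point per library. Colours give the culture and shapes the day. Both measures run from the day 0 libraries, at 0.543 to 5.93 CPM of Tgfbi, to the day 35 libraries, at 85.7 to 562 CPM, and the points share the day of culture as well as library composition.

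The 10 microglia and macrophage markers summed to 45.0 to 290 CPM in cone cells at days 21 and 35, where 7 and 8 of the 8 tested were called higher than in rod. Of all genes 9.0% and 12.3% were called in either direction on those days. In rod cells they summed to 1.08 to 5.42 CPM on those days, beside 0.136 to 2.30 CPM in untreated cells, and at day 12 to 7.19 to 56.2 CPM in cone and 2.14 to 16.2 CPM in rod. Their part in the difference of Tgfb1 was not tested. The 7 pigment epithelium markers summed to 22.7 to 37.9 CPM in cone and 9.85 to 19.2 CPM in rod cultures. The 3 that could be tested were all called higher in cone over days 5 to 35, beside 15.6% of all genes. Rpe65 and Mlana were at 0 in every cone and rod group from day 5 on other than cone at day 35. The part of these cells in the results was not tested.

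The genes most like each member over the 11 group means of log2 CPM are given as a description, since the means share the day of culture. Tgfb1 was closest to Cdkn2b (Pearson r = 0.996), a cell cycle inhibitor gene known as a TGF-beta target, and Tgfbr2 to Serpinf1 (0.997), the gene of pigment epithelium-derived factor. Tgfb2 was closest to A2m (0.992), Tgfb3 to Cdk18 (0.998), Inhba to Synpo (0.997), Tgfbr3 to Rab22a (0.996) and Tgfbi to Timp3 (0.997), a metalloproteinase inhibitor gene. Tgfbr1 was closest to Chrna5 (0.983). Skil had lower values, with Lipe (0.943), Adamts5 (0.934) and Pmepa1os (0.932), a transcript antisense to Pmepa1 by its name. Among the members, Tgfb1 and Tgfbr2 were the most alike (0.991), while Skil ranged from -0.534 with Tgfbr1 to 0.752 with Inhba.

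Some features of the counting touch single members. Exons of Tgfb2 overlap those of Gm29491 on the opposite strand over 124 bases, Tgfb3 overlaps Gm37804 and Gm48008 on the opposite strand over 163 and 257 bases, and Tgfbr3 overlaps Gm43422 on the same strand over 297 bases. These neighbours held 243, 37, 0 and 133 counts over all 33 libraries, and whether the counting used strand is not given in the sources used here. The deposited TPM values did not follow the counts. Tgfbi was listed at 0 TPM in 23 of 33 libraries, among them one with 2895 counts, and over 18069 genes the Spearman correlation of TPM with CPM per kilobase was 0.324 to 0.468 per library. Levels were therefore taken from counts alone.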

How the data were processed

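RNA of 33 libraries in 11 groups of 3 was measured. Per the submitters' processing notes, HISAT2, StringTie, HTSeq and build GRCm38 were used, with no versions. The authors deposited unnormalised read counts per gene, used for all comparisons, and TPM, used as an alternative only. The FPKM and coverage signal that the authors deposited were checked for unit and not used. Total counts in genes were 7511837 to 19166442 per library. The deposited tables' summary lines for unassigned reads were left out, and genes received 26.9% to 34.9% of reads.

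Genes were filtered with filterByExpr by group at a minimum count of 10, scaled by TMM and fitted in 1 quasi-likelihood model over all libraries (edgeR 4.0.16, limma 3.58.1, R 4.3.3). P-values were adjusted by Benjamini-Hochberg over all 18150 genes tested, and a gene was called at an adjusted p under 0.05. Every share of all genes is of edgeR calls at that threshold. Counts at unadjusted p or by DESeq2 therefore have no like share beside them. Errors of log2 changes are standard errors. The F test has 4 degrees of freedom and asks for any change of that difference between days. CPM per kilobase used exon lengths from GENCODE M21, and likeness used log2 CPM with a prior count of 2. Gene positions are those of the authors' files, and 5 of the 9 equal the GENCODE span. The spans of Tgfb3, Inhba, Tgfbr2 and Tgfbi differ, so the exon lengths used may not be those of the counting. The isoform shares, the Tgfbr2 to Tgfbr1 ratios and the level of Tgfbi per kilobase are therefore approximate. The script was tested on simulated counts with changes set in the cone libraries of day 12, in genes at a mean of at least 1 CPM. It recovered 65% of the 2-fold and 92% of the 4-fold changes, with 10 false calls among 17482 genes. In that simulation a missed call of a 2-fold change was therefore common. Far fewer genes were changed there than were called between the cultures at day 12, so the rate in the data may differ. Figures used Python 3.11.15 and matplotlib 3.10.9.

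The alternatives were RLE scaling, no filter, DESeq2 1.42.0, a minimum mean of 1 CPM, the compared libraries alone, a replicate block, TPM with limma on log2(TPM + 1) for genes with a mean TPM of at least 1, each library left out, and, added after the data were seen, the mean of days without day 12. Of each pathway list the text names the genes called over days 5 to 35, at most the 3 largest each way, and at most 2 each way in rod priming and in each culture from day 0 to day 35; of likeness the 3 highest were ranked, passing over Gm and Rik symbols. The members and lists were chosen with earlier results of these data known, and the pathway and marker lists hold known genes of those roles and cell types. A gene that the naming rule covers is not reported here.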

Additional observations from a re-analysis of the deposited data

Results flagged for a closer look

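The cone minus rod difference of Skil was not the same at all 5 days. On the log2 scale it was -0.79 in primed cells at day 0, then -0.07 on both day 5 and day 12, then -0.77 for day 21 and -0.45 for day 35. The edgeR F test of a change with day, fitted over all genes, gave an adjusted p of 0.00680 (0.000134 by DESeq2). It called 9.22% of all genes. At day 0 all 3 rod primed libraries were above all 3 cone primed libraries, and the same held between the cultures at days 21 and 35.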

How the results depend on the processing

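Of the results of the 9 genes that were called by edgeR over all libraries, 2 turned direction, both with TPM and limma. Direction was not checked for results that were not called, nor for the F test. Skil in rod primed against untreated cells was -0.15 (adjusted p = 0.907), and Tgfb3 in rod from day 5 to day 12 was -0.40 (adjusted p = 0.704), and only 4 of the 9 reached a mean of 1 TPM. TPM called 0 of these 4 in the cone against rod comparisons of days 0, 12, 21, 35 and the mean, in rod priming, in rod from day 0 to day 35, in the cone step to day 12, in the rod steps to days 5, 12 and 21 and in the F test, 1 in cone from day 0 to day 35 and 2 in the cone step to day 5. With the compared libraries alone the calls were 2 at day 5, 2 at day 21, 1 at day 35, 3 in rod priming, 4 in the rod step to day 12, 0 in the rod step to day 21 and 2 in the F test. DESeq2 called 1 at day 5, 2 at day 21, 3 in rod priming, 1 in the last rod step and 2 in the F test. RLE scaling and the 1 CPM filter each called 2 in rod priming. The cause of these changes was not tested. The setting of the compared libraries alone had fewer samples for the spread and was also filtered and scaled anew. Leaving out 1 library gave 1 to 4 calls at day 35, 1 to 2 in rod priming (2 without untreated replicate 1 or 3 or rod primed replicate 2), 1 to 2 in the rod step to day 5 (1 without rod primed replicate 1 or 2 or day 5 replicate 1), 4 to 7 in that to day 12 (4 without day 5 replicate 2 or day 12 replicate 1), 2 to 7 in that to day 21, 0 to 1 in the last (1 without day 35 replicate 1) and 1 to 3 in the F test (3 without cone primed replicate 2, 2 without rod day 35 replicate 1 or 2). Tgfbi in rod rose by 5.74 from day 0 to day 35, 4.77 without day 35 replicate 2 and 6.48 without rod primed replicate 3. Deviations of same-numbered libraries correlated at -0.259 to 0.513 (median 0.0164, against -0.0114 for other libraries), with 48 of 165 pairs over 0.1. Of 33 libraries, 14 were closest to a library of their own number. These values do not settle whether some replicate numbers pair libraries. A replicate block changed no call of a member, with 5 called over the mean of days. Of the values of single genes under an alternative, 2392 kept their side of the threshold, 37 became called, 75 were no longer called and 2 called values turned direction. Of the other pathway genes TPM called 7 rather than 30 over the mean of days and 0 rather than 11 in rod priming. Depth limits Tgfb1 and Inhba at day 0, at 0 to 8 counts per library. It also limits Tgfbr2 (2 to 25 counts), Tgfbr3 (3 to 34) and Tgfbi (8 to 66) there.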
